A study of Mus musculus with 6 samples.

Results

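The LIF receptor and STAT3 pathway genes described here are 10 genes, Lifr, Il6st, Jak1, Jak2, Stat3, Socs3, Socs2, Gbx2, Pim1 and Pim3, out of 22332 gene symbols in the count table. They were chosen by symbol, as parts of the LIF signalling route and as known STAT3 target genes, and all 10 passed the filter on low counts. The libraries were made, after removal of ribosomal RNA, from CGR8, an embryonic stem cell line of the mouse that was kept on gelatin in medium with 10% fetal bovine serum and added LIF. The siRSL24D1 group (3 libraries) had received a pool of siRNAs against Rsl24d1, whose product helps to build the large subunit of the ribosome, and the siCtrl group (3 libraries) a pool of non-targeting siRNAs. Both groups were collected 48 hours after transfection, and the design text calls the triplicates independent. All libraries come from this 1 cell line, and cells without siRNA were not analysed here.

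LIF is a cytokine that keeps mouse embryonic stem cells self-renewing. It binds the receptor LIFR, which pairs with the shared receptor chain gp130, encoded by Il6st, and the kinases JAK1 and JAK2 bound to these receptors then phosphorylate the transcription factor STAT3. STAT3 enters the nucleus and raises genes that support the naive state and genes such as Socs3 that shut the receptor off again. Transcript levels show neither the amount of these proteins nor their phosphorylation.

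Library totals ran from 30943635 to 35214000 estimated counts. Rsl24d1 was at 53.8, 55.6 and 52.1 CPM (counts scaled to a common library size) in siRSL24D1, against 99.4, 102.7 and 97.9 CPM in siCtrl, so the targeted transcript was lower in every library labelled as knockdown. All 9 embryonic stem cell markers examined were expressed, with Pou5f1 at 459 to 514 CPM in siRSL24D1 and 438 to 505 CPM in siCtrl, and Sox2 at 126 to 130 CPM in siRSL24D1 and 119 to 122 CPM in siCtrl. By the edgeR test described below, 20.0% of all genes tested were called lower and 21.2% higher. Of these 9 markers 6 were lower, from -0.62 (Tdgf1) to -0.16 (Utf1) in log2 fold change, and 1 higher in siRSL24D1 (Zfp42, 0.24). The 2 not called were Pou5f1 and Sox2. The summed level of the 9 markers was 2592 to 2725 CPM in siRSL24D1, against 3017 to 3410 CPM in siCtrl. Of 5 tested trophoblast markers 4 were higher and 1 lower, with a sum of 1029 to 1262 CPM in siRSL24D1 and 836 to 881 CPM in siCtrl, most of it Krt18. Endoderm markers summed to 20.9 to 24.4 CPM in siRSL24D1 and 20.96 to 23.7 CPM in siCtrl (2 of 6 tested higher, 1 lower), fibroblast and feeder markers to 119 to 142 CPM in siRSL24D1 and 122 to 154 CPM in siCtrl (2 of 7 tested higher, 2 lower), and 4 blood markers to 1.15 to 1.88 CPM in siRSL24D1 and 1.03 to 1.42 CPM in siCtrl. The part of these cell type markers in the results below was not tested. In each group 1 library stood apart from the other 2: siRSL24D1 2, at a chi-square per degree of freedom of 13.1 and 16.1 against siRSL24D1 1 and siRSL24D1 3, which were at 4.38 from each other, and siCtrl 3, at 20.1 and 15.2 against siCtrl 1 and siCtrl 2, which were at 2.77 from each other. No library was a copy of another.

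The comparison asks which transcripts of the LIF route differ when Rsl24d1 is reduced in cells that keep receiving LIF. Among the 10 genes, the kinase genes Pim1 and Pim3 and the feedback inhibitor Socs3 were lower in siRSL24D1, at 0.629, 0.735 and 0.881 of their siCtrl means. The homeobox gene Gbx2 was higher, at 1.80 times its siCtrl mean, and the receptor gene Lifr at 1.13 times. Il6st, Jak1, Jak2, Stat3 and Socs2 did not pass the test. Genes were tested across the whole table with the quasi-likelihood F test of edgeR and called at a Benjamini-Hochberg adjusted p under 0.05. In that fit 41.2% of all genes tested were called, 21.2% higher and 20.0% lower, so 5 called of 10 (2 higher, 3 lower) is close to the share among all genes. The groups did not overlap in 6 of the 10 genes (2 higher, 4 lower), where 53.0% of all genes tested had no overlap, 26.8% higher and 26.2% lower. The median log2 fold change of the 10 genes was -0.06, against 0.02 over all genes tested, and their median absolute change was 0.16, against 0.20. In bulk RNA, fewer cells of a type that expresses a gene and less of its RNA per cell cannot be told apart.

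**Figure D1:**
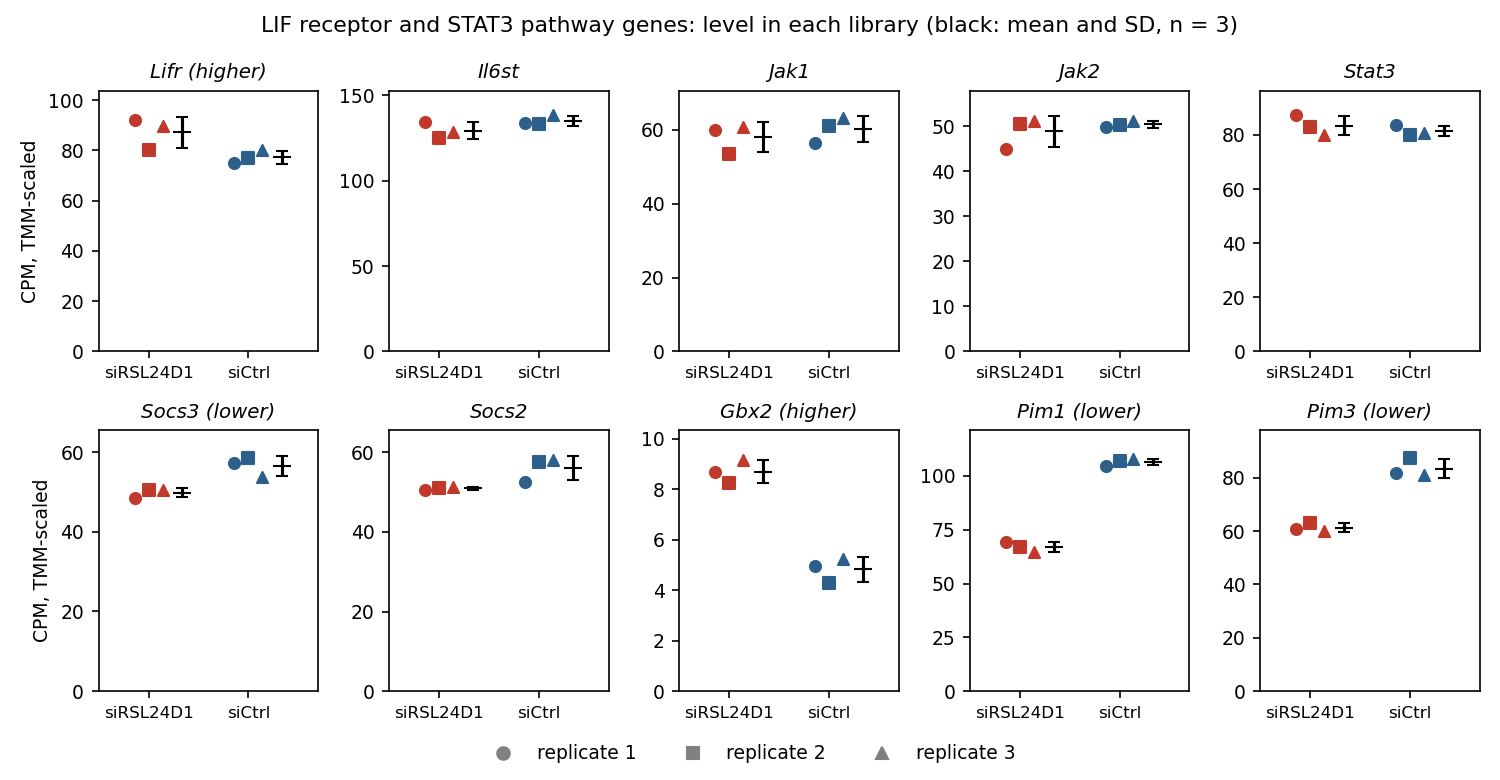
Level of each of the 10 genes in CPM (vertical axes, from 0) in the 3 siRSL24D1 libraries (red) and the 3 siCtrl libraries (blue), with the mean and SD of each group in black and genes past the test marked in the panel title. Pim1, at 64.8 to 69.4 CPM in siRSL24D1 and 105 to 108 CPM in siCtrl, and Gbx2, at 8.24 to 9.14 CPM in siRSL24D1 and 4.27 to 5.22 CPM in siCtrl, show the largest changes relative to the siCtrl mean.

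The sequences before the start sites of these genes were examined because the set holds known STAT3 targets, of which Socs3, Pim1 and Pim3 were called lower and Gbx2 higher. STAT proteins bind a palindrome that can be written TTCNNNGAA, which reads the same on both strands. RefSeq promoter windows (GRCm38.p6, 250 bases before to 50 bases after a start site) were found for 9 of the 10 genes, in 11 windows, and Socs2 had no entry. The palindrome was in 1 of these 11 windows, that of Socs3, and in 8.30% of all 32851 windows of the table. In Socs3 its first base lay at -154 from the RefSeq start site (chr11:117969512-117969520, minus strand). The gene spans given below come from GENCODE M21, where Socs3 runs to 117970047, so the palindrome lies inside that span. The Lifr windows, from 7129322 and 7140292, also lie inside its span, which begins at 7090614. The Socs3 palindrome is printed in capitals within its surroundings (chr11:117969487-117969546, minus strand).
Socs3: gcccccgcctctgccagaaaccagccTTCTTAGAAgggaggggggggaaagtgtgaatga

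The windows of Pim1, Pim3 and Gbx2 hold no such palindrome, but sequence outside the windows was not searched. The 120 bases before the start site are shown for these genes because they carried the largest changes. Capitals mark the GC box GGGCGG on either strand, a motif that was looked for after seeing these sequences. GC boxes were in 9 of the 11 windows and in 35.7% of all windows, counting both strands. The 11 windows held 49.0% to 81.3% G and C, and the share among windows of like content was not computed. The Pim1 stretch (chr17:29490665-29490784, plus strand; the first of its 2 windows) holds 3 of them, the Pim3 stretch (chr15:88862074-88862193, plus strand) 2, and the Gbx2 stretch (chr1:89931177-89931296, minus strand) 0, although 2 lie elsewhere in its window.
Pim1: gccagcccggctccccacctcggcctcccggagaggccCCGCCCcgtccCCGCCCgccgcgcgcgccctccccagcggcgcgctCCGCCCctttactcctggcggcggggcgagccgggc
Pim3: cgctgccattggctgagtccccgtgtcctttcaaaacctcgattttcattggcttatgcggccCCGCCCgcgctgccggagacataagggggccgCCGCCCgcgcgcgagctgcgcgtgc
Gbx2: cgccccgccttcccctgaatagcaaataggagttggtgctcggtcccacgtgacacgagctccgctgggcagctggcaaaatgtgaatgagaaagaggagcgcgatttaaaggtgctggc

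Lifr encodes the receptor chain that LIF binds first (chromosome 15, 7090614 to 7197489, plus strand, GRCm38). It was at 92.0, 80.1 and 89.6 CPM in siRSL24D1, against 75.0, 76.9 and 80.1 CPM in siCtrl. The groups did not overlap, but siRSL24D1 2 and siCtrl 3 nearly met. On the log2 scale Lifr was 0.17 higher (SE 0.06, edgeR adjusted p = 0.0456). The call was lost under 11 of the 21 alternatives tried. These were the runs without siRSL24D1 1, siRSL24D1 3, siCtrl 1 or siCtrl 2 (adjusted p = 0.138 to 0.144), the size factors of DESeq2 (0.0520), upper-quartile scaling (0.0751), no filter on low counts (0.0577), the DESeq2 test (0.0634), an adjusted p under 0.01, and a correction for transcript length, alone (log2 fold change 0.07, adjusted p = 0.272) or with the replicate number as a block (0.08, adjusted p = 0.196). Without siRSL24D1 2 and siCtrl 3 together, the libraries that stood apart, the log2 fold change was 0.24 (edgeR adjusted p = 0.000292). For Lifr these are the lowest siRSL24D1 library and the highest siCtrl library, so leaving them out had to widen the gap. That run was chosen after seeing the data, and it called more genes in both directions over the whole table. The longest Lifr transcript measures 9.655 kb, the longest among the 10 genes, and its estimated counts were not whole numbers in any of the 6 libraries.

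Il6st encodes gp130, the chain that LIFR shares with the receptors of related cytokines (chromosome 13, 112464070 to 112510086, plus strand). Its level was 135, 125 and 129 CPM in siRSL24D1, against 134, 133 and 138 CPM in siCtrl, and the groups overlapped. The log2 fold change was -0.06, with a 95% interval from -0.16 to 0.04 (adjusted p = 0.279). Within a library, the ratio of Il6st over Lifr does not depend on the scaling between libraries. That ratio was 1.46, 1.56 and 1.43 in siRSL24D1, against 1.78, 1.73 and 1.73 in siCtrl, so it was lower in every siRSL24D1 library. The difference of the mean log2 ratio was -0.23, with SDs of 0.06 in siRSL24D1 and 0.02 in siCtrl (two-sided exact permutation p = 0.1, which is the lowest value this group size allows; adjusted p = 0.2 over 4 ratios).

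Jak1 and Jak2 encode the tyrosine kinases bound to the receptor chains. Jak1 (chromosome 4, 101152367 to 101265282, minus strand) was at 59.8, 53.5 and 60.8 CPM in siRSL24D1, against 56.3, 61.1 and 63.2 CPM in siCtrl. Jak2 (chromosome 19, 29251828 to 29313080, plus strand) was at 44.9, 50.5 and 51.1 CPM in siRSL24D1, against 49.7, 50.3 and 51.2 CPM in siCtrl. Both genes overlapped between the groups. The log2 fold change of Jak1 was -0.05 (95% interval -0.20 to 0.10, adjusted p = 0.543) and that of Jak2 was -0.05 (95% interval -0.18 to 0.09, adjusted p = 0.558). Jak1 changed sign without siRSL24D1 2, the library in which it was lowest, and Jak2 without siRSL24D1 1, in which it was lowest. The ratio of Jak2 over Jak1 overlapped between the groups, at 0.750, 0.943 and 0.842 in siRSL24D1 and 0.883, 0.823 and 0.810 in siCtrl.

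Stat3 encodes the transcription factor at the end of this route (chromosome 11, 100885098 to 100939540, minus strand). Its level was 87.3, 83.0 and 80.1 CPM in siRSL24D1, against 83.6, 80.1 and 80.7 CPM in siCtrl, with the groups overlapping. The log2 fold change was 0.03 with a 95% interval from -0.07 to 0.14 (adjusted p = 0.577), and its sign turned after a correction for transcript length (-0.01). As a ratio of siRSL24D1 over siCtrl, that interval runs from 0.952 to 1.102. The Stat3 gene overlaps the end of Stat5a on the opposite strand, only from 100885098 to 100885169, and its longest transcript measures 6.042 kb. Stat5a was lower in siRSL24D1 (log2 fold change -0.85, adjusted p = 0.000542). Its counts were 542 over the siRSL24D1 libraries and 981 over the siCtrl libraries, against 8315 and 8125 for Stat3. The library kit marks strand, but no source used here gives the strand setting of the counting. Reads from these few shared bases therefore cannot be assigned with certainty. Jak1 overlaps Raver2 only from 101152367 to 101152370, and antisense transcripts overlap Gbx2 and Pim1.

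**Figure D2:**
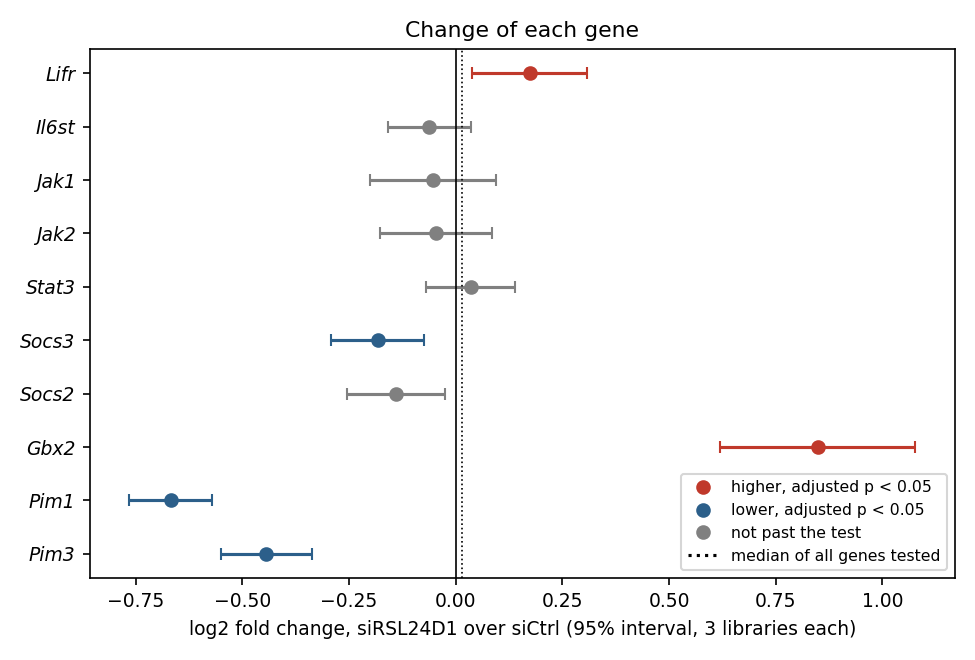
Log2 fold change of each gene, siRSL24D1 over siCtrl (horizontal axis), with its 95% interval from the edgeR fit, not adjusted for multiple tests; red and blue points passed the test and grey points did not. Pim1 at -0.67, Pim3 at -0.44 and Gbx2 at 0.85 lie farthest from 0, and the intervals of Il6st, Jak1, Jak2 and Stat3 include it.

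Socs3 and Socs2 encode inhibitors of cytokine receptors, and Socs3 in particular is raised by STAT3 and blocks gp130 signalling. Socs3 (chromosome 11, 117966079 to 117970047, minus strand) was at 48.5, 50.4 and 50.4 CPM in siRSL24D1, against 57.2, 58.5 and 53.8 CPM in siCtrl. All siRSL24D1 libraries lay below all siCtrl libraries. On the log2 scale Socs3 fell by 0.18 (SE 0.05, edgeR adjusted p = 0.0163). The call was lost without siRSL24D1 1 (adjusted p = 0.0562), siCtrl 1 (0.0616) or siCtrl 2 (0.0800), and at an adjusted p under 0.01. Without siRSL24D1 2 and siCtrl 3 together, the log2 fold change was -0.25 (adjusted p = 0.000607), in a run that called more genes over the whole table.

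Socs2 (chromosome 10, 95385362 to 95417180, minus strand) was at 50.5, 51.0 and 51.3 CPM in siRSL24D1, against 52.5, 57.5 and 58.1 CPM in siCtrl. The groups did not overlap, yet the gene missed the threshold, at a log2 fold change of -0.14 (SE 0.05, adjusted p = 0.0545). It passed under upper-quartile scaling (adjusted p = 0.0245), with the size factors of DESeq2 (0.0381), and under the length correction (0.0171) or the GC correction (0.0452). It also passed without siCtrl 1 (0.0257), and without siRSL24D1 2 and siCtrl 3 together (0.0469). Each of these runs except that without siCtrl 1 also called more of all genes tested lower. The ratio of Socs2 over Socs3 was 1.04, 1.01 and 1.02 in siRSL24D1 and 0.918, 0.982 and 1.08 in siCtrl, and these ranges overlapped (exact permutation p = 0.7, adjusted p = 0.933 over 4 ratios).

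Pim1 and Pim3 encode related serine and threonine kinases that promote survival and growth and are induced by cytokines through STAT proteins. Pim1 (chromosome 17, 29490753 to 29496112, plus strand) was at 69.4, 66.9 and 64.8 CPM in siRSL24D1, against 105, 107 and 108 CPM in siCtrl. Its group totals were 6681 counts in siRSL24D1 and 10624 in siCtrl. Pim1 was at -0.67 on the log2 scale (SE 0.04, edgeR adjusted p = 3.55e-05), and it stayed between -0.70 and -0.64 under all 21 alternatives, all past their threshold. The gap between the groups was many times the spread within them, which was an SD of 2.34 CPM in siRSL24D1 and 1.52 CPM in siCtrl.

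Pim3 (chromosome 15, 88862186 to 88865726, plus strand) was at 60.7, 63.1 and 60.1 CPM in siRSL24D1, against 81.8, 87.5 and 80.9 CPM in siCtrl. The change of Pim3 was -0.44 on the log2 scale (SE 0.05, edgeR adjusted p = 0.000255), and it ranged from -0.51 to -0.41 over the same 21 alternatives, past the threshold in each. The ratio of Pim1 over Pim3 was 1.14, 1.06 and 1.08 in siRSL24D1, against 1.28, 1.22 and 1.33 in siCtrl, a difference of -0.22 in the mean log2 ratio (exact permutation p = 0.1, the lowest this group size allows; adjusted p = 0.2 over 4 ratios). The third gene of the family, Pim2, was at 26.1, 22.9 and 27.0 CPM in siRSL24D1, against 35.8, 34.1 and 44.5 CPM in siCtrl, a log2 fold change of -0.59 (adjusted p = 0.00312). All 3 Pim genes were thus lower, with no overlap between the groups. Over all genes tested, 20.0% were called lower and 26.2% lay lower without overlap.

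Gbx2 encodes a homeobox transcription factor that STAT3 raises in stem cells and that also patterns the embryonic hindbrain (chromosome 1, 89927956 to 89931179, minus strand). It was at 8.67, 8.24 and 9.14 CPM in siRSL24D1, against 4.96, 4.27 and 5.22 CPM in siCtrl. Every siRSL24D1 library was above every siCtrl library. Behind these values are 865 counts over the siRSL24D1 libraries and 481 over the siCtrl libraries, the fewest of the 10 genes. Gbx2 was 0.85 higher on the log2 scale (SE 0.10, edgeR adjusted p = 0.00041), and its change ranged from 0.77 to 0.93 over the 21 alternatives, past the threshold in each. Among the 10 genes, the direction of Gbx2 was opposite to that of Pim1, Pim3 and Socs3.

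An order of levels was read after dividing counts by transcript length, here the longest transcript of each gene in GENCODE M21. Which transcripts of a gene were expressed was not examined, so the order between genes depends on this choice of length. In CPM per kb, Pim3 was at 25.3 ± 0.65 in siRSL24D1 and 34.4 ± 1.48 in siCtrl, and Pim1 at 24.8 ± 0.87 in siRSL24D1 and 39.5 ± 0.56 in siCtrl (SD, n = 3 each). The ranges of both genes overlapped in siRSL24D1, while Pim1 lay above Pim3 in siCtrl. Socs3 followed at 19.5 ± 0.44 CPM per kb in siRSL24D1 and 22.1 ± 0.97 in siCtrl. Il6st, Stat3, Socs2, Jak1, Jak2 and Lifr, from 14.9 down to 9.03 CPM per kb in siRSL24D1 and from 15.6 down to 8.01 in siCtrl, came next in the same order in both groups. In siRSL24D1 there was overlap between Il6st and Stat3, between Socs2 and Jak1, and between Jak2 and Lifr. In siCtrl the libraries of Stat3 and Socs2 overlapped, as did those of Socs2 and Jak1, and the other neighbours in the order did not. Gbx2 was lowest, at 4.07 ± 0.21 CPM per kb in siRSL24D1 and 2.26 ± 0.23 in siCtrl.

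**Figure D3:**
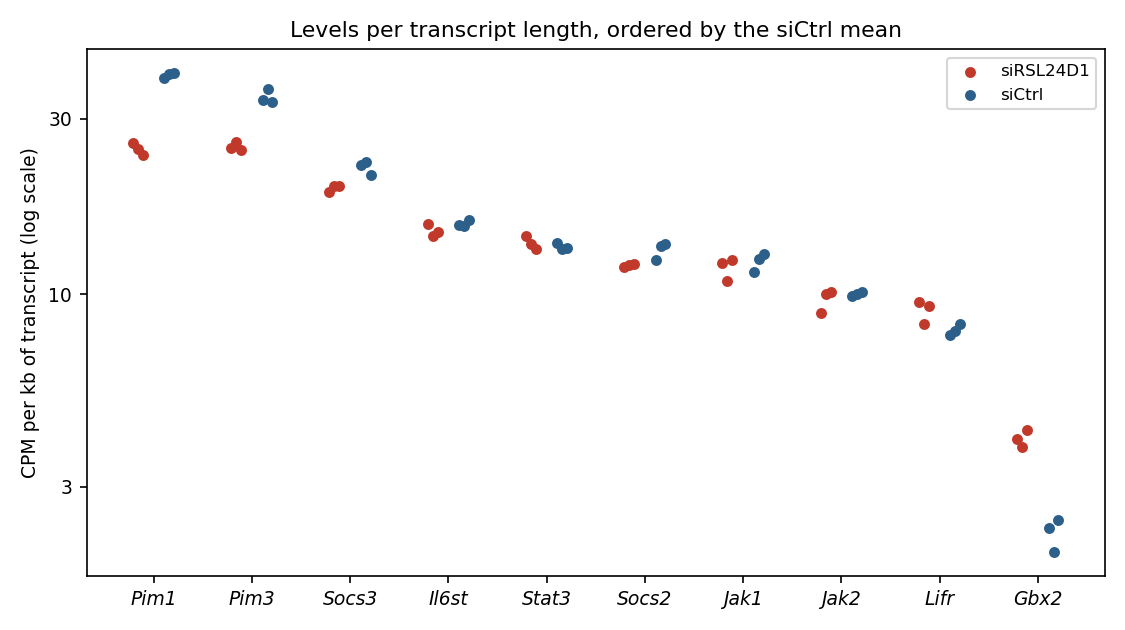
Level of each gene in CPM per kb of its longest transcript (vertical axis, log scale), with 1 point per library, siRSL24D1 in red and siCtrl in blue, ordered by the siCtrl mean. Pim1 and Pim3 are the highest in both groups and Gbx2 the lowest, at 3.86 to 4.28 CPM per kb in siRSL24D1 and 2.001 to 2.44 in siCtrl.

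Within siRSL24D1, the lowest level fell in library 1 for 3 of the 10 genes, in library 2 for 4 (Lifr, Il6st, Jak1 and Gbx2) and in library 3 for 3. The highest level fell in siRSL24D1 1 for 4 genes, in siRSL24D1 2 for 1 and in siRSL24D1 3 for 5. Within siCtrl, library 3 had the highest level of 7 genes, all but Stat3, Socs3 and Pim3, and the lowest level fell in libraries 1, 2 and 3 for 5, 3 and 2 genes. Likeness was measured over genes whose mean log2 CPM reached 3 (9891 compared for Gbx2 and 9890 for Pim1, without clone-like symbols). Those whose log2 CPM, taken relative to the siCtrl mean, was closest to that of Gbx2 across the 6 libraries were Pm20d1, Adamts7 and Antxr2, with a root mean square difference of 0.05 to 0.06 on the log2 scale. For Pim1 they were Rab11fip4, Mov10 and Nmnat2, at 0.03 to 0.04. This likeness is a description over 6 libraries in 2 groups.

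Other genes of the route were examined in lists by role. Their counts in the main fit stand against 21.2% of all genes tested called higher and 20.0% called lower. Of 10 ligands of the gp130 family, 8 were tested, 2 were higher and 0 lower in siRSL24D1 (edgeR; at an unadjusted p under 0.05, 2 were higher and 2 lower). Lif itself was at 15.5, 17.3 and 17.4 CPM in siRSL24D1, against 12.8, 13.2 and 14.1 CPM in siCtrl, a log2 fold change of 0.32 (adjusted p = 0.00818). Ctf2, a cardiotrophin gene, rose by 0.72 on the log2 scale but was at or below 2.23 CPM in every library (adjusted p = 0.0102). Il6 had 0 counts over the siRSL24D1 libraries and 3 over the siCtrl libraries, Il27 had 0 in both, and neither was tested. DESeq2 and limma-voom also called 0 ligands lower.

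Of 5 other receptor genes of the family, 1 was higher and 1 lower. Cntfr, the receptor of ciliary neurotrophic factor, was at 7.996, 7.13 and 8.24 CPM in siRSL24D1, against 3.63, 4.36 and 5.89 CPM in siCtrl, a log2 fold change of 0.75 (adjusted p = 0.00766). Il27ra fell to 1.05 ± 0.03 CPM in siRSL24D1, against 1.98 ± 0.43 CPM in siCtrl (SD, n = 3 each; log2 fold change -0.91, edgeR adjusted p = 0.00736). Of this list 2 genes were higher without siRSL24D1 3 or without siCtrl 3, and 2 were lower without siCtrl 3. Among 7 other JAK and STAT genes, 4 were lower and 0 higher (edgeR; 1 higher at an unadjusted p under 0.05, and 0 by DESeq2 or limma-voom), with a list median of -0.44. The lower genes were Stat5a at -0.85, Stat2 at -0.80, Stat6 at -0.45 and Stat5b at -0.44, while Stat3, in the same family, was at 0.03. Stat2, which carries interferon signals, was at 27.7, 24.97 and 25.99 CPM in siRSL24D1, against 44.7, 44.0 and 48.1 CPM in siCtrl (edgeR adjusted p = 5.53e-05). Without siRSL24D1 2, without siCtrl 3 and without both, 1 gene of this list was called higher.

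Of 14 other negative regulators, 3 were higher and 3 lower, with a median of -0.05. Socs5 was at 17.2, 19.7 and 19.5 CPM in siRSL24D1, against 12.6, 11.9 and 12.8 CPM in siCtrl, a log2 fold change of 0.60 (adjusted p = 0.000492), in the opposite direction to Socs3. Ptpn1, a phosphatase that acts on JAK kinases, was at 0.22 (adjusted p = 0.0140), Socs7 at -0.27 (adjusted p = 0.00276) and Ptpn6, a phosphatase of cytokine receptors, at -0.22 (adjusted p = 0.0482). The call of Ptpn6 was lost without any 1 library other than siCtrl 3 (edgeR adjusted p = 0.0515 to 0.160). It was also lost with library totals (edgeR adjusted p = 0.0611), by limma-voom (adjusted p = 0.0514) and at an adjusted p under 0.01. Without siRSL24D1 3 or without siCtrl 2, 1 of the 14 was called lower, and without siRSL24D1 2 and siCtrl 3 together 5 were. The number of all genes tested that were called lower also fell without siRSL24D1 3 or siCtrl 2. It rose without siRSL24D1 2 and siCtrl 3 together.

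Besides STAT3, gp130 feeds the RAS and MAP kinase arm and the PI3-kinase arm. Of 17 genes of these arms, 8 were higher and 4 lower (21.2% and 20.0% over all genes tested), with a median of 0.08. Pik3r1, a regulatory subunit of PI3-kinase, was at 25.7, 25.3 and 27.0 CPM in siRSL24D1, against 17.6, 17.3 and 18.9 CPM in siCtrl (log2 fold change 0.54, adjusted p = 0.000301). The genes with the largest falls were Map2k1 and Mapk3, kinases of the MAP kinase arm, and the adaptor Shc1, with Map2k1 at -0.49 (adjusted p = 0.000104), Mapk3 at -0.47 (0.000225) and Shc1 at -0.32 (0.00119). The number of higher genes was 4 without siCtrl 1 and 5 without siCtrl 2, siRSL24D1 1 or siRSL24D1 3. In each of these runs fewer of all genes tested were called higher as well.

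Of 18 other genes known as LIF-induced or STAT3-bound, 7 were higher and 3 lower (21.2% and 20.0% over all genes tested), with a median of 0.13. Bcl6, a transcriptional repressor, was at 4.24, 5.04 and 4.36 CPM in siRSL24D1, against 3.09, 2.704 and 2.40 CPM in siCtrl (log2 fold change 0.74, adjusted p = 0.00303). Myc was at 22.6, 24.7 and 25.9 CPM in siRSL24D1, against 16.6, 16.04 and 18.1 CPM in siCtrl (log2 fold change 0.53, adjusted p = 0.000825). Ier3, an early response gene, was at -0.50 (adjusted p = 0.00202) and Pim2 at -0.59. The number of higher genes was 4 without siCtrl 2 or without siRSL24D1 3, runs in which fewer of all genes tested were also called higher.

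**Figure D4:**
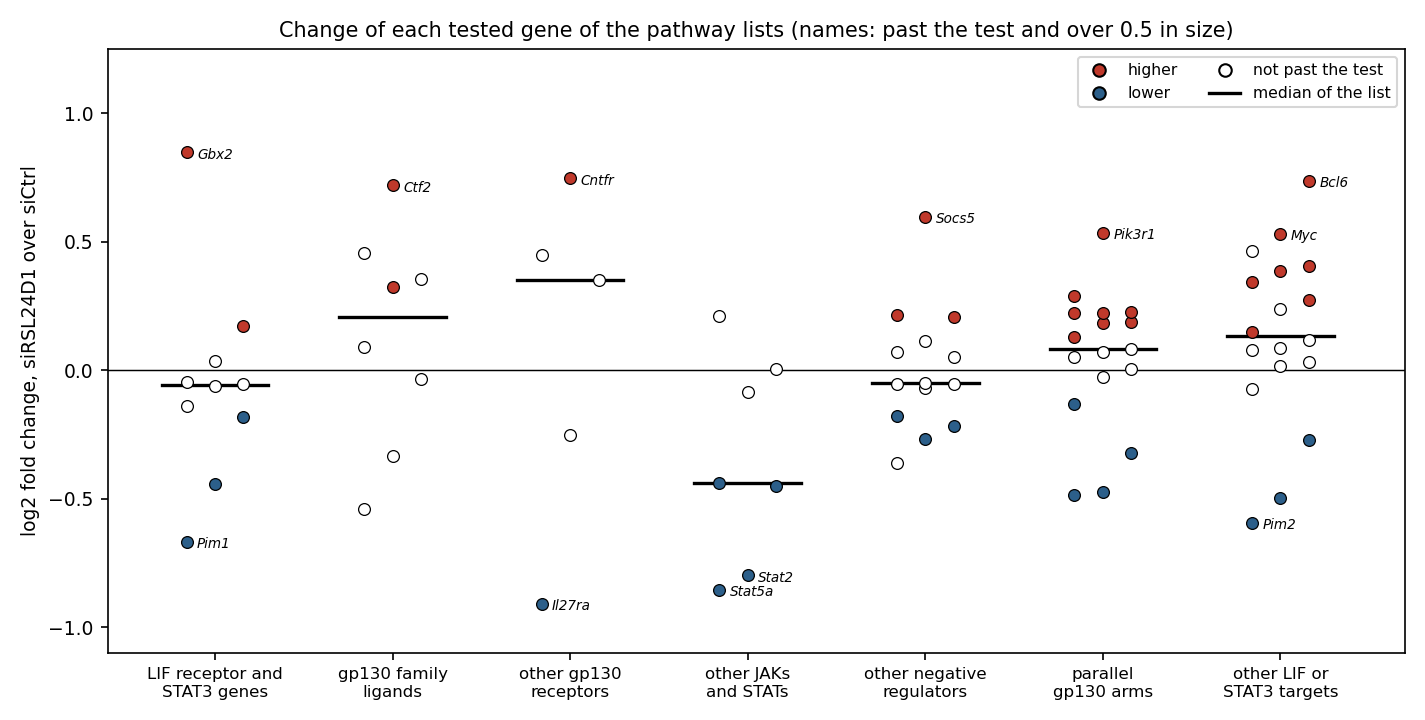
Log2 fold change, siRSL24D1 over siCtrl (vertical axis), of each tested gene of the 10-gene set and of the 6 pathway lists, with a bar at the median of each list; red points passed the test as higher, blue as lower and white did not pass. The other JAK and STAT genes have the lowest median, at -0.44, and the target genes spread to both sides of 0.

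Over the 10 genes and the 6 pathway lists, 62 of 81 genes had a promoter window and 6 held the STAT palindrome. They were Socs3, called lower, Gab1, Bcl6 and Sgk1, called higher, and Cish and Sbno2, which were not called. The first window of Bcl6 held 3 copies, with the first base at -168 (TTCCTGGAA), -122 (TTCTGTGAA) and -88 (TTCCGGGAA) from the start site on the minus strand of chromosome 16, and its second window held TTCTCAGAA at -118. Among all genes with a window, 9.55% held the palindrome.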

How the data were processed

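The authors deposited estimated counts (expected counts) for each gene symbol in each library, without scaling. STAR 2.7.0f, Salmon 0.14.1 and the build GRCm38 are named in the submitters' processing notes, with no role. No source used here gives the annotation, the filters or the strand setting. Between 21.59% and 22.65% of a library's values were not whole, at a tolerance of 1e-09. The tests had been planned for counts, so values were rounded first.

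The filterByExpr function (at least 10 counts, total of at least 15) left 15084 genes. TMM scaling preceded the comparison of the groups with edgeR 4.0.16 (glmQLFit, glmQLFTest, two-sided, no other term) in R 4.3.3. P-values were adjusted by the method of Benjamini and Hochberg over these genes. Standard errors are the log2 fold change over the square root of F. CPM are TMM-scaled, from rounded counts. Coordinates and lengths come from GENCODE M21 (GRCm38), which held 22304 of 22332 symbols, and promoters from RefSeq (GRCm38.p6). Simulated data were used to test the edgeR step.

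The members and lists were chosen with earlier results of these data known. A gene of the JAK and STAT list is not reported here. Named pathway genes are the called genes of each list, up to the 4 with the largest change. Krt18, Tdgf1, Utf1, Zfp42, Gab1, Sgk1, Cish, Sbno2, Stat4, Tyk2 and Jak3 were named after their values were seen. Alternatives were other scalings (DESeq2 1.42.0 size factors, upper quartile, library totals), other filters, the DESeq2 and limma 3.58.1 (voom) tests, the replicate number as a block, length and GC corrections, unrounded values, an adjusted p under 0.01 and each library left out. Leaving out siRSL24D1 2 and siCtrl 3 together was chosen after seeing the data.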

Additional observations from a re-analysis of the deposited data

How the results depend on the processing

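Gbx2, Pim1 and Pim3 kept their direction and their call under all 21 alternatives. The number of the 10 genes called higher was 1, Gbx2 alone, with DESeq2 size factors, upper-quartile scaling, no filter, the DESeq2 test, the length correction (with or without the block) or an adjusted p under 0.01, and 1 to 2 when a library was left out. The number called lower was 5 under the length correction with the block, which added Il6st (log2 fold change -0.15, adjusted p = 0.0180) and Socs2, and 2 to 3 when a library was left out. It was 2 at an adjusted p under 0.01. It was 4 with DESeq2 size factors, upper-quartile scaling, the length correction alone, the GC correction (with or without the block) or without siRSL24D1 2 and siCtrl 3 together. Values near 0 changed sign: the log2 fold change of Jak1 lay between -0.0977 and 0.0021 with a library left out, above 0 without siRSL24D1 2, and was 0.0201 without siRSL24D1 2 and siCtrl 3 together. That of Jak2 lay between -0.0793 and 0.0118, above 0 without siRSL24D1 1, and that of Stat3 was -0.0148 under the length correction and -0.0146 with the block added. The log2 difference of the Socs2 over Socs3 ratio lay between -0.0108 and 0.1075 with a library left out, and that of Jak2 over Jak1 between -0.0772 and 0.0878. Of the lists, the other receptors had 2 genes higher with library totals, the 1 CPM filter, the block (alone or with either correction) or without siRSL24D1 2 and siCtrl 3 together, and 2 lower with upper-quartile scaling, the block, the length correction (with or without the block) or without those libraries; 1 to 2 were called in each direction with a library left out. The other JAK and STAT genes had 1 higher without both libraries and 0 to 1 with a library left out. The negative regulators had 5 lower with the length correction and block or without both libraries, 1 at an adjusted p under 0.01 and 1 to 3 with a library left out. The parallel arms had 5 higher under upper-quartile scaling, 3 at an adjusted p under 0.01 and 4 to 9 with a library left out, the target genes 4 at that threshold and 4 to 7, and the ligands 1 at that threshold. Over all genes tested, fewer were called higher and more lower with upper-quartile scaling, DESeq2 size factors or the GC correction alone. With library totals more were called higher and fewer lower. Fewer were called in both directions with no filter, the 1 CPM filter or the DESeq2 test. The same held at an adjusted p under 0.01 or without any 1 library other than siCtrl 3. More were called in both directions with the length correction alone or the block (alone or with either correction). That was also so without siCtrl 3, alone or together with siRSL24D1 2. Against that, Lifr lost its call under the length correction, with or without the block. The other receptors gained a gene called higher with the 1 CPM filter or without siRSL24D1 3. The JAK and STAT genes gained 1 without siRSL24D1 2. The stricter palindrome TTCCNGGAA was in 0 windows of the 10 genes and in 1.15% of all windows. The cause of these changes was not tested.

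No pairing of the replicate numbers was found: the deviations of same-numbered libraries from their group means correlated at -0.42, 0.35 and 0.36 over 12531 genes, and siRSL24D1 2 correlated best with siCtrl 1, at 0.62. With siCtrl 3, siRSL24D1 2 correlated at -0.66, siRSL24D1 1 at 0.44 and siRSL24D1 3 at 0.36. Libraries of both groups thus shared deviations that did not follow the replicate numbers, and their source was not tested. With the replicate number as a block, 2 of the 10 genes were higher and 3 lower, and 2 of the other receptors were higher and 2 lower.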
